A study of Homo sapiens with 9 samples.

Results

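KRT1, KRT2 and KRT10 are the keratins that mark the suprabasal layers of the epidermis. They were followed here in EPC2, a human cell line from esophageal epithelium that was immortalised with telomerase (hTERT). The 3 genes were taken by symbol from the 24672 genes of the deposited RNA-seq tables, which also hold 25 other epithelial keratins, and each had 1 transcript in the tables. In the 3 ALI silenced libraries SPINK7 had been silenced and the cells differentiated by exposure to air on a permeable support, an air-liquid interface (ALI). In the 3 ALI control libraries the cells carried a non-silencing control (NSC) and went through the same culture. The 3 monolayer libraries are from undifferentiated cells with that control. All cells grew in serum-free keratinocyte medium supplemented with EGF at 1 ng/mL and pituitary extract from cattle at 50 ug/mL. ALI cultures reached confluence at 0.09 mM calcium, received 1.8 mM calcium from day 2, were exposed to air from day 7 and were collected on day 14. All libraries come from 1 cell line, and the labels describe no second silenced population, so an effect of losing SPINK7 and an effect of the construct cannot be told apart. Whether replicate libraries stem from separate cultures is not stated in the labels; every p-value therefore reflects variation among libraries that could be technical.

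Keratins form filaments as obligate pairs of a type I and a type II chain. Basal cells of stratified epithelia make the type II chain KRT5 with the type I chain KRT14. On leaving the basal layer, epidermal cells switch to KRT1 (type II) with KRT10 (type I), and KRT2 (type II) is added in the upper spinous and granular layers. Esophageal epithelium is known instead for KRT4 and KRT13 in its suprabasal layers. SPINK7, the silenced gene, encodes a secreted serine protease inhibitor of esophageal epithelium.

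In the coordinates of the tables (hg19), KRT1 lies at chr12:53068520-53074191 and KRT2 at chr12:53038342-53045959, side by side on the minus strand with KRT77 on the other flank of KRT1. KRT10 lies at chr17:38974369-38978863 on the minus strand and overlaps TMEM99 (chr17:38975344-38992526), which runs on the plus strand. Of the 3 keratins, 2 (KRT2 and KRT10) matched the table of RefSeq promoters used here and KRT1 did not, and the promoters of this pair are shown to let their letters be compared beside their levels. They are the 250 bases before the start of each gene in RefSeq (GRCh38.p14, 5′ to 3′ in the sense of the gene), and capitals mark matches to 4 motifs searched on both strands. The motif of the TATA box, which positions the start of transcription in some promoters, was TATAAA. For the AP-1 site, which Fos and Jun proteins bind, the letters searched were TGANTCA. The box known for binding Krüppel-like factors was searched as CACCC. For the E-box, bound by helix-loop-helix proteins, the letters were CANNTG. The KRT2 window is chr12:52652212-52652461 and the KRT10 window chr17:40822615-40822864, both on the minus strand.
KRT2: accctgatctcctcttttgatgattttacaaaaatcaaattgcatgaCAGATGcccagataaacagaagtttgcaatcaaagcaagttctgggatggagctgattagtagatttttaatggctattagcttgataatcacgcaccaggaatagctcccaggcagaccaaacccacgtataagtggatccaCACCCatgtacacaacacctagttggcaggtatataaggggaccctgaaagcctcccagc
KRT10: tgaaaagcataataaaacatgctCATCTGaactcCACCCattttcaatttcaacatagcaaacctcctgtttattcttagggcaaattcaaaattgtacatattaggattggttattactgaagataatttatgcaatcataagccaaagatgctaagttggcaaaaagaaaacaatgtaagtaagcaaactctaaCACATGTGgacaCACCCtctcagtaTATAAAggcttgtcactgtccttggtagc
KRT2 held an E-box 203 to 198 bases and a CACCC box 60 to 56 bases before the start. KRT10 held a TATA box 29 to 24 bases before the start, CACCC boxes at 42 to 38 and at 216 to 212, and E-boxes at 227 to 222, 54 to 49 and 52 to 47, of which the last pair overlap. Among the 35116 promoters of the table, 10.7% held the TATA box, 6.6% the AP-1 site, 54.7% the CACCC box and 61.8% the E-box. Of the 28 epithelial keratins 12 were in the table, and 4 of them held the TATA box, 10 the CACCC box, 10 the E-box and 0 the AP-1 site. GC content was 43.6% in the KRT2 window and 34.8% in the KRT10 window. A match is a run of letters and does not show that a factor binds there. Nor does a missing match show that a box is absent, as only the letters given above were searched. Near its end the KRT2 window reads tatataag, which is close to TATAAA but is not a match.

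The libraries held between 7641960 and 14009746 counts. SPINK7 was at 20.9, 38.6 and 32.7 CPM (counts scaled to the effective library size) in the silenced libraries, against 229, 261 and 225 CPM in ALI control libraries. The silenced gene was thus lower in every silenced library (log2 fold change -2.95, SE 0.30, adjusted p = 0.00246, edgeR). The ALI libraries numbered 2 stood apart from the other ALI libraries on the second principal component, which held 14.0% of the variance. Silenced library 2 scored -25.5 and control library 2 -78.5 on it, against 14.3 to 55.0 in the other ALI libraries. Results for the keratins and the gene lists are given with and without these libraries. Markers of the labelled cell type (TP63, KRT5, KRT14, CDH1, SOX2, PAX9 and DSP) were detected in all 3 groups. Markers of other cell types were low but not all absent. Summed CPM of 7 leukocyte markers was 0.937 to 9.55 in silenced, 3.17 to 12.4 in control and 2.12 to 3.82 in monolayer libraries, with PTPRC at 0 counts throughout. For 7 melanocyte markers it was 2.62 to 5.84 in silenced, 4.02 to 7.82 in control and 1.72 to 3.33 in monolayer libraries, with TYR and DCT at 0. For 8 fibroblast markers it was 20.7 to 45.6 in silenced, 12.2 to 49.2 in control and 50.1 to 186 in monolayer libraries, mostly COL1A1. For 5 endothelial markers it was 1.76 to 2.80 in silenced, 3.53 to 10.05 in control and 0.405 to 0.745 in monolayer libraries. Silenced and control libraries did not overlap in this sum, as for 6.34% of single genes tested in this direction. The part of these other cell types in the results below was not tested.

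With SPINK7 silenced, ALI cultures held far less RNA of the pair KRT1 and KRT10. Pooled over libraries, KRT1 in silenced cultures was at 2.18% of its level in control cultures and KRT10 at 4.18%, while KRT2 was at 6.81% and did not pass the test. Of the 3 keratins 2 fell at an adjusted p below 0.05, in a comparison in which 0.703% of the 12806 genes tested fell, 0.226% rose and 0.929% changed in either direction. In bulk RNA, fewer cells of a type and less RNA per cell cannot be told apart.

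KRT1 had 68.8, 37.0 and 94.7 CPM in the silenced libraries (66.8 ± 28.9, SD, n = 3), against 3618, 888 and 3814 CPM in the ALI control libraries (2773 ± 1635, n = 3). Groups did not overlap, as for all 3 keratins and for 6.34% of the 12806 genes in this direction: the lowest control library was still 9.38-fold above the highest silenced one. KRT1 fell by 5.38 on the log2 scale (SE 0.67, 95% interval -6.87 to -3.89, adjusted p = 0.00593, edgeR). Of the 12806 genes 9 had a more negative change, and KRT1 passed in all 20 alternatives (adjusted p from 1.17e-18 to 0.0498). By CPM, KRT1 ranked 2972nd, 4963rd and 2100th among genes of the silenced libraries, and 17th, 162nd and 15th in the control libraries.

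KRT10, the type I partner of KRT1, had 145, 87.2 and 231 CPM in the silenced libraries (154 ± 72.2), against 5228, 918 and 4012 CPM in the control libraries (3386 ± 2222, SD, n = 3 each). Again no silenced library reached a control library, and the gap was 3.98-fold at its narrowest. KRT10 fell by 4.46 on the log2 scale (SE 0.64, interval -5.87 to -3.04, adjusted p = 0.0124), with 20 genes changing more negatively. The call was lost without silenced library 1 (adjusted p = 0.0780) or silenced library 3 (adjusted p = 0.0564), within a range of 3.32e-14 to 0.0780 over all alternatives. TMEM99, which overlaps KRT10 on the opposite strand, had 11.6, 15.5 and 14.5 CPM in silenced libraries and 16.3, 30.9 and 15.3 CPM in control libraries. KRT10 was above TMEM99 in each of these libraries; how many reads the overlap moves between the genes was not tested.

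KRT2 was the least abundant of the 3, with 4.48, 1.79 and 9.25 CPM in the silenced libraries (5.17 ± 3.78), against 78.4, 16.4 and 99.0 CPM in the control libraries (64.6 ± 43.0, SD, n = 3 each). These values rest on 48, 26 and 79 reads in silenced libraries and 585, 130 and 936 in control libraries, and the groups did not overlap, by 1.77-fold at the narrowest. The log2 fold change was -3.67 (SE 0.77, interval -5.45 to -1.89) and missed the threshold (adjusted p = 0.0845, with a range of 1.76e-05 to 0.309 over the alternatives). KRT2 passed in 4 of the 20 alternatives, among them the fit without control library 2 (-4.15, adjusted p = 0.0227). Leaving out both ALI libraries numbered 2 gave -3.71 (adjusted p = 0.00013), also past the threshold.

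**Figure D1:**
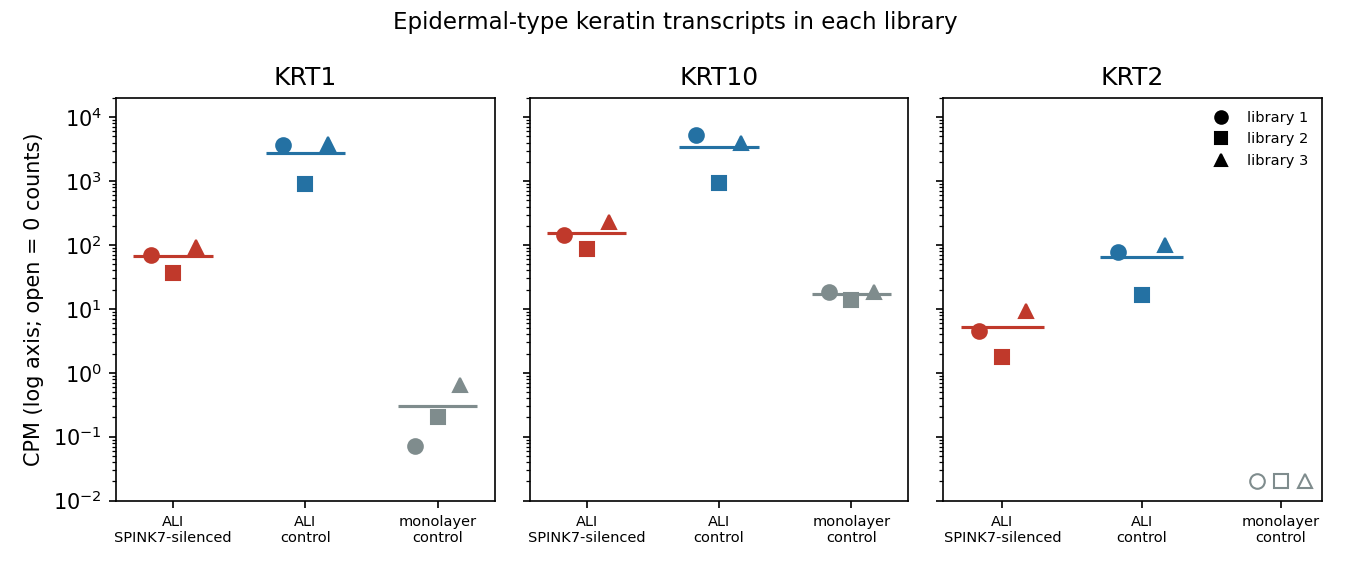
CPM of KRT1, KRT10 and KRT2 on a log axis in each of the 9 libraries, with ALI SPINK7-silenced libraries left of ALI control and monolayer libraries; horizontal lines are group means and open symbols mark 0 counts. The 3 groups do not overlap for any of the keratins, and library 2 (squares) is the lowest of both ALI groups. Of all genes tested, 6.34% lacked overlap with silenced below control libraries. The share was 27.3% with control above monolayer and 28% with silenced above monolayer libraries.

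The library numbered 2 was the lowest for all 3 keratins in both ALI groups. In silenced library 2 KRT1 was at 45.2%, KRT10 at 46.4% and KRT2 at 26.0% of the mean of the other silenced libraries. In control library 2 they were at 23.9%, 19.9% and 18.5% of the mean of the other control libraries. Between these 2 libraries, the silenced one held 4.16% of the KRT1 of the control one, 9.51% of its KRT10 and 10.9% of its KRT2. Libraries 1 and 3 gave 2.20% for KRT1, 4.07% for KRT10 and 7.74% for KRT2. Thus the keratins were lower in silenced cultures on either side of the split. Without both libraries numbered 2, KRT1 gave -5.51 (adjusted p = 4.32e-06) and KRT10 -4.62 (adjusted p = 1.06e-05) on the log2 scale, and the count of genes called was 708 (5.48% of the genes tested in that fit) in place of 119.

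Ratios within the trio differed between the ALI groups, although the 95% intervals of the 3 log2 fold changes overlap. Per length (the authors' RPKM), KRT1 stood at 0.414, 0.370 and 0.358 of KRT10 in silenced libraries, against 0.604, 0.845 and 0.830 in control libraries. KRT1 was thus lower relative to its partner in every silenced library, by 0.98 on the log2 scale (exact two-sided permutation p = 0.1, the smallest that 3 against 3 allows). KRT2 was 6.62, 4.91 and 9.91% of KRT1 in silenced libraries, against 2.20, 1.87 and 2.64% in control libraries. This ratio was higher in every silenced library, by 1.63 on the log2 scale (exact permutation p = 0.1, again the smallest possible). Such a separation was not particular to the trio. KRT5 over KRT14, the basal pair, was 1.03, 1.10 and 1.05 in silenced libraries and 0.895, 0.726 and 0.727 in control libraries (exact permutation p = 0.1). In both ALI groups the order per length was KRT10, KRT1, KRT2 in each library, with means of 62.2, 23.5 and 1.84 RPKM in silenced cultures and 1296, 925 and 21.9 RPKM in control cultures.

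Set against all 28 epithelial keratins, the trio made up 0.157, 0.162 and 0.288% of keratin RPKM in silenced libraries, against 7.74, 2.72 and 5.38% in control libraries. No silenced library came near a control library, and the difference of 5.08 percentage points could not reach an exact permutation p below 0.1 (p = 0.1, two-sided, n = 3 each). Total keratin RPKM overlapped between the groups, at 42899.7 ± 11250.0 in silenced and 39025 ± 16320 in control cultures (exact permutation p = 0.7, n = 3 each). KRT1 was 0.240, 0.268 and 0.425% of the basal type II chain KRT5 in silenced libraries and 20.1, 11.9 and 18.4% in control libraries. KRT5 itself gave a log2 fold change of 0.48 with silencing, so this ratio restates the fall of KRT1 and is not a separate test.

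**Figure D2:**
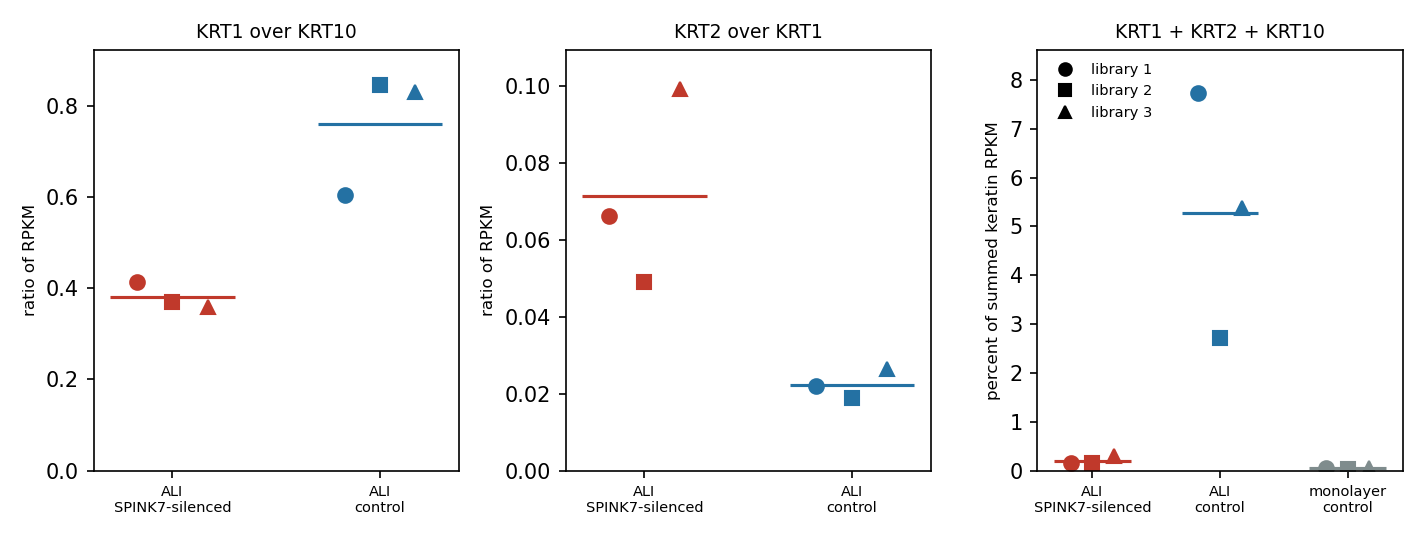
Ratios of RPKM within each library (left, KRT1 over KRT10; middle, KRT2 over KRT1) and the summed RPKM of KRT1, KRT2 and KRT10 as a percent of the RPKM of all 28 epithelial keratins (right); lines are group means. In silenced libraries KRT1 is 0.358 to 0.414 of KRT10, and in control libraries 0.604 to 0.845.

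All 3 keratins rose when control cells were differentiated. In this comparison 20.3% of genes rose, 20.2% fell and 40.5% changed in either direction, so a count of 3 of 3 is to be read against that share. KRT1 had 3618, 888 and 3814 CPM in ALI control libraries, against 0.0708, 0.202 and 0.639 CPM in monolayers, where it rested on 1, 2 and 6 reads. No libraries overlapped for any of the keratins, as for 27.3% of genes in this direction, and KRT1 rose by 13.23 on the log2 scale (SE 0.98, interval 11.06 to 15.40, adjusted p = 8.10e-06), with 9 of the 12806 genes rising more. KRT10 was already detectable in monolayers, at 18.7, 13.6 and 18.3 CPM, which is close to the 12.5, 10.3 and 12.6 CPM of the overlapping TMEM99. How many of the KRT10 reads in monolayers stem from TMEM99 was not tested. KRT10 rose by 7.65 on the log2 scale (SE 0.74, interval 6.00 to 9.30, adjusted p = 4.33e-05), and 203 genes rose more. KRT2 had 0 counts in all 3 monolayer libraries; against a floor of 3 counts over the group, its pooled level in ALI control cultures was at least 739.7-fold higher (adjusted p = 0.000469).

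Silenced ALI cultures still held more RNA of all 3 keratins than monolayers did. This comparison shares its monolayer libraries with the differentiation comparison and its silenced libraries with the silencing comparison. KRT1 was 229-fold higher when pooled over libraries (log2 fold change 7.85, SE 0.86, adjusted p = 0.000121). KRT10 was 8.31-fold higher (3.19, SE 0.61, interval 1.84 to 4.54, adjusted p = 0.00313). KRT2 was at least 50.4-fold higher against the same floor (adjusted p = 0.00633). In this comparison 15.8% of genes rose, 15.9% fell and 31.7% changed. The 3 keratins held 0.157, 0.162 and 0.288% of keratin RPKM in silenced libraries, against 0.0540, 0.0393 and 0.0558% in monolayers. All silenced libraries were above all monolayers in that share, and in the CPM of each keratin, as for 28% of genes in this direction.

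**Figure D3:**
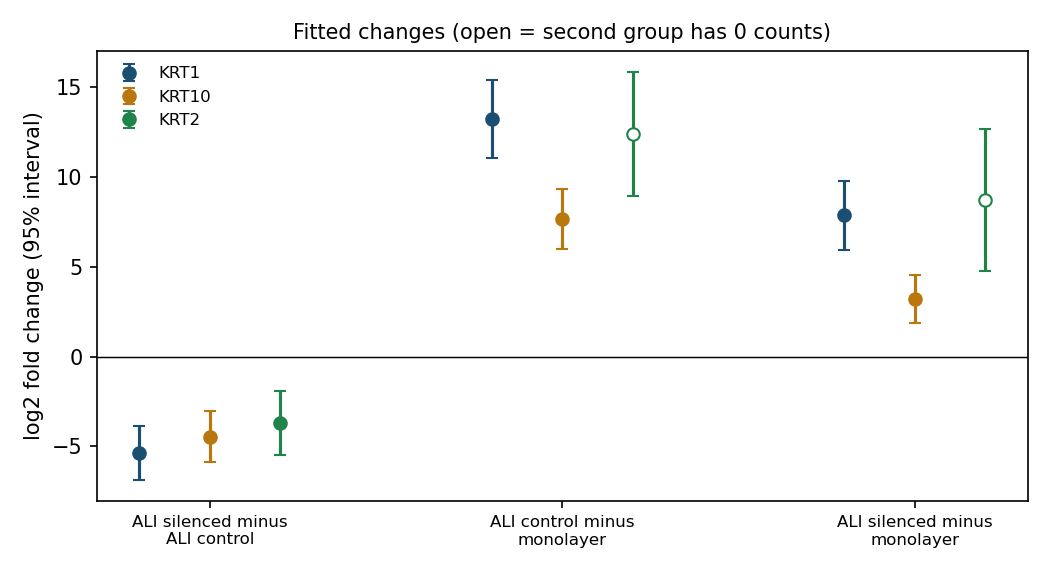
Fitted log2 fold changes (edgeR) with 95% intervals for KRT1, KRT10 and KRT2 in the 3 comparisons; open symbols mark fits against a group with 0 counts, whose size depends on the prior count. Intervals lie below 0 for silenced minus control and above 0 for both comparisons with monolayers, although KRT2 missed the adjusted threshold in the silencing comparison.

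Among the 28 epithelial keratins 24 could be tested, and 3 fell with silencing, KRT1, KRT10 and KRT4, while none rose (median log2 fold change -0.06 over the tested keratins, 0.01 over all genes). Over all genes 0.703% fell and 0.226% rose. KRT4, the type II chain of esophageal suprabasal cells, was at 136 ± 27.3 CPM in silenced and 537 ± 149 CPM in control cultures (SD, n = 3 each), a fall of 1.98 on the log2 scale (adjusted p = 0.0138). Its interval of -2.65 to -1.32 lies above that of KRT1. KRT13, the other esophageal suprabasal keratin named above, gave -0.60 and missed the threshold (interval -1.58 to 0.39, adjusted p = 0.728). The call of KRT4 was lost without control library 1 (adjusted p = 0.0629) or 3 (0.0504) and without silenced library 1 (0.0832) or 3 (0.0728), in a range of 6.57e-09 to 0.0832, and without silenced library 1 or 3 the count of keratins that fell was 1, namely KRT1. The most abundant keratins gave small changes that missed the threshold, and their intervals all include 0. The basal pair KRT5 and KRT14 gave 0.48 and 0.06, and the injury-associated keratins KRT6A, KRT6B and KRT17 gave 0.08, 0.00 and 0.29. KRT16, another keratin of activated epithelium, gave -0.31. The signs of KRT14, KRT17 and KRT6A were reversed when single ALI libraries were left out, and that of KRT6B in 13 of 20 alternatives. KRT6 genes, and KRT14, KRT16 and KRT17, have near-identical copies or pseudogenes, so their reads may be shared. Without both ALI libraries numbered 2, 428 of all 12931 genes tested fell and 280 rose. In that fit 8 epithelial keratins fell, KRT1, KRT2, KRT10, KRT4, KRT23, KRT77, KRT78 and KRT79, and KRT8 and KRT19 rose. Of these, KRT8 (1.25) and KRT19 (1.17) are keratins of simple epithelia. The summed CPM of 9 simple epithelial markers, which include KRT8, KRT18 and KRT19, lay between 1276 and 2121 in silenced libraries and between 341 and 896 in control libraries. Most of that sum was KRT19 (1139 CPM in silenced and 441 CPM in control cultures on average), and 0 of the 6 markers tested passed with all libraries. Over all genes 0.929% passed, so 0 of 6 is near that share. MUC1, of the same list, had a mean of 12.8 CPM in silenced and 23.8 CPM in control cultures, and fell by 1.81 without the libraries numbered 2. CLDN4, also of that list, rose by 1.17 in that fit (adjusted p = 0.0158, edgeR). The part of these markers in the keratin changes was not tested.

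**Figure D4:**
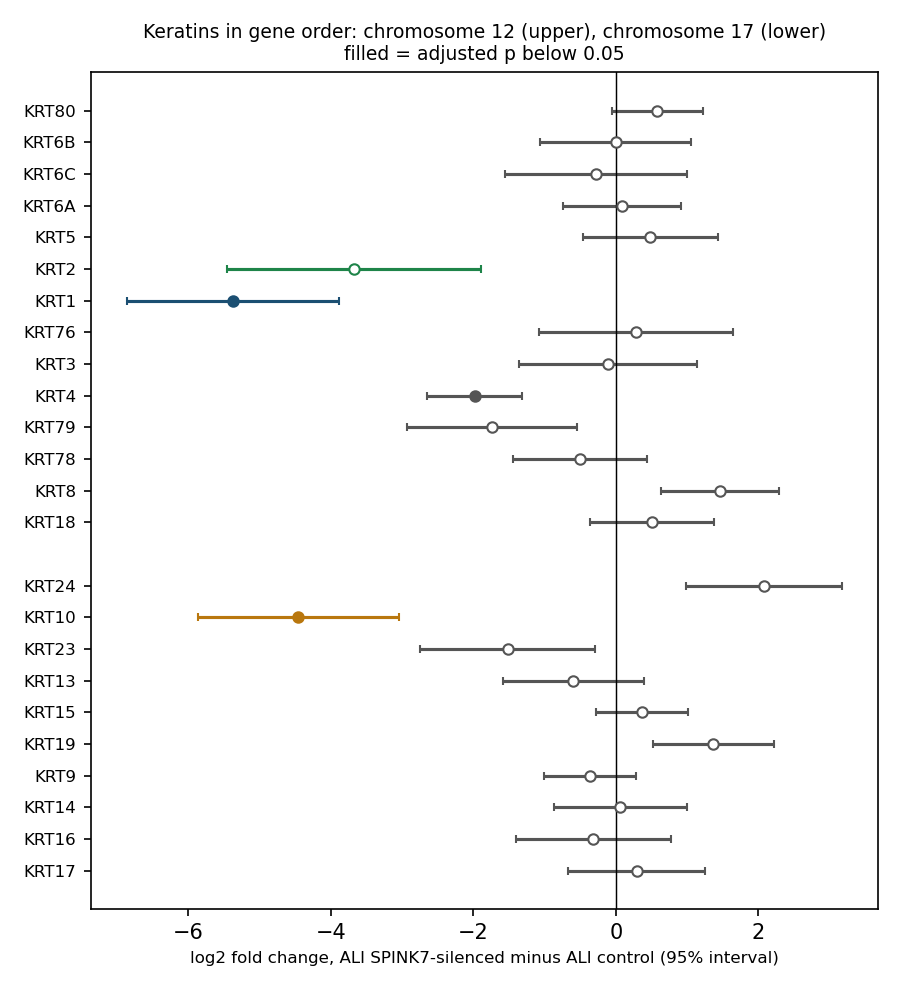
Log2 fold change of each tested epithelial keratin (silenced minus control at the ALI, 95% interval) in gene order along chromosomes 12 and 17; filled symbols passed an adjusted p of 0.05. KRT1, KRT10 and KRT2 have the most negative values, next to neighbours such as KRT76 and KRT23 with values nearer to 0.

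Genes beside the trio are named here for their position. KRT77, next to KRT1, had 6 reads over the silenced libraries, 69 over the control libraries and 0 over monolayers, too few for the filter; without both ALI libraries numbered 2 it was tested and fell by 3.52 (adjusted p = 0.0152). KRT76, on the far side of KRT77, gave 0.28 (adjusted p = 0.899). KRT73, next to KRT2, and KRT28 and KRT12, on either side of KRT10, had at most 13 reads in any library. KRT27, a root sheath keratin 2 genes from KRT10, was at 0.187, 0.275 and 1.29 CPM in silenced libraries against 7.50, 5.93 and 13.5 CPM in control libraries. It was the single keratin of 5 tested in the hair and inner root sheath list to fall (-4.03, adjusted p = 0.0463), and the call was lost in 9 of 19 alternatives (adjusted p from 4.29e-06 to 0.172). Of all 12806 genes tested 0.703% fell.

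Genes of the spinous and granular layers, where KRT1, KRT10 and KRT2 are normally made, were tested next. Of 33 tested, 13 fell with silencing, none rose and 20 did not pass (median log2 fold change -1.11, against 0.01 over all genes). Over all genes 0.703% fell and 0.226% rose. When both ALI libraries numbered 2 were left out, 18 fell and 2 rose, CALML3 (1.41) and the protease KLK5 (1.48). In that fit 428 of all 12931 genes fell and 280 rose. FLG2, a filaggrin-like barrier protein, fell by 6.28 (adjusted p = 0.000308), and DSC1, a desmosomal cadherin of upper layers, fell by 6.20 (adjusted p = 0.00246). The protease ASPRV1 fell by 5.95 and the keratinocyte differentiation protein KRTDAP by 4.48 (adjusted p = 0.00246 for both). None of 15 genes for desmosomal plaques and keratin anchorage passed (median 0.08), with or without both ALI libraries numbered 2. Likewise none of 35 regulators of early squamous differentiation passed (median 0.09). Over all genes 0.929% passed, so 0 calls in either list is near that share. Without both ALI libraries numbered 2, 3 regulators fell and 1 rose, in a fit in which 5.48% of genes passed. In the mucosal list 2 of 18 fell, SPINK7 itself and KRT4 (median -0.46); the count was 1 when silenced library 1 or 3 or control library 1 or 3 was omitted, 4 without control library 2, 5 without silenced library 2 and 9 without both. With the trio, 31 of the 33 spinous and granular genes and all 18 mucosal genes rose on differentiation of control cells, in a comparison in which 20.3% of all genes rose.

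The genes whose course over the 9 libraries was nearest to each keratin differed between the members. Likeness was measured as the root mean square difference of centred log2 CPM among 11133 genes, on which a smaller value means a closer course. Nearest to KRT1 were KRTDAP (1.16), the desmosomal cadherin DSG1 (1.21), FLG2 (1.24), the serpin SERPINB3 (1.35) and the secreted SLURP1 (1.55), against a median of 5.12 over all genes. KRT10 was nearest to the calmodulin-like CALML5 (0.47), the cytochrome CYP4B1 (0.52), FETUB (0.55), the envelope protein loricrin (LOR, 0.56) and KRT2 (0.65), with a median of 3.10. KRT2 was nearest to LOR (0.56), KRT10 (0.65), CALML5 (0.68), CYP4F22 (0.71) and LY6G6C (0.74), with a median of 3.40. Among the 11133 genes KRT10 came 62nd for KRT1, and KRT1 427th for KRT10. These places rest in part on the monolayers, where KRT1 had 1, 2 and 6 reads. With a prior count of 0.5 in place of 2, KRT10 moved to 141st place for KRT1 and KRT1 to 791st for KRT10, while KRT2 moved from 17th to 6th for KRT1. KRT2 moved to 69th place for KRT10, and KRT10 to 63rd for KRT2, so the nearness of KRT2 and KRT10 depends on how 0 counts in monolayers are treated. Other neighbours moved too. For KRT10, LOR moved from 4th to 38th and CYP4B1 from 2nd to 13th place, while FETUB moved from 3rd to 1st. For KRT2, CALML5 moved from 3rd to 24th and CYP4F22 from 4th to 12th, while LOR stayed 1st and LY6G6C moved from 5th to 3rd. CALML5 was in 2nd place for KRT10 with that prior count.

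**Figure D5:**
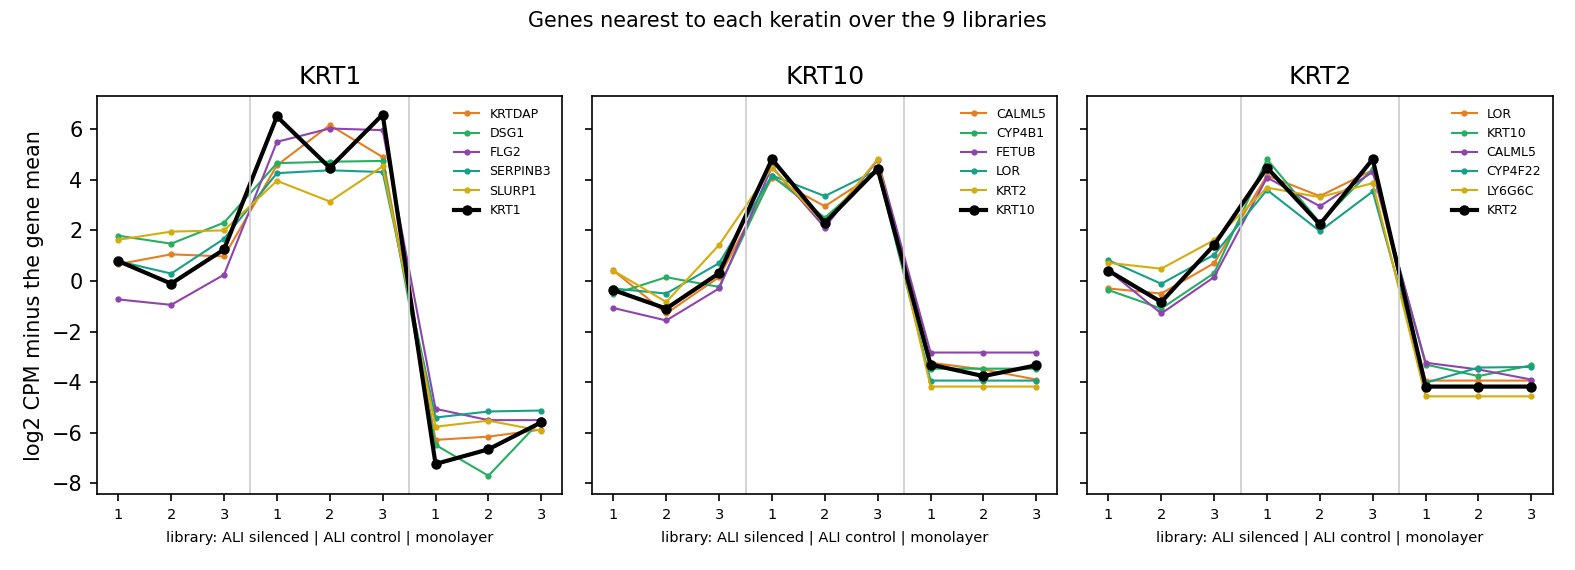
Log2 CPM minus the mean of the gene in each library for KRT1, KRT10 and KRT2 (black) and the 5 genes nearest to each, with silenced, control and monolayer libraries from left to right. KRT10 and KRT2 share the dip in control library 2 with their nearest genes, whereas DSG1 and FLG2 lack it beside KRT1.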

How the data were processed

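PolyA-selected, stranded RNA-seq libraries of EPC2 cells were deposited as 1 table per library with 29800 transcript rows; per the file headers, each row gives a position, its reads and its RPKM. The authors deposited whole-number counts that were not normalized, and RPKM values, reads scaled by transcript length and library total. The submitters' processing notes name hg19, STAR 2.4.2a, Bowtie and MACS2 without roles; the sources used here do not name the counter or say whether it used strand. Deposited ALI tables carry other day names and numbers than the labels, and the labels were used.

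Counts were summed per gene symbol and chromosome (24672 genes) and tested in R 4.3.3 with edgeR 4.0.16: TMM scaling, filterByExpr (12806 genes), a robust quasi-likelihood fit of all 9 libraries by group, and Benjamini-Hochberg adjustment over all genes tested in a comparison, with a threshold of 0.05. CPM uses effective library sizes. Intervals of 95% use the moderated degrees of freedom. The procedure was run on simulated counts with the same spread for all genes and no library set apart. That run therefore does not cover the ALI libraries numbered 2. Ratios and shares use deposited RPKM values with exact two-sided permutation tests. Likeness uses log2 CPM with a prior count of 2 for genes with a mean of at least 5 CPM in 1 or more groups. The depth of a library limits precision at low counts, as for KRT2 in silenced libraries, and counting floors cover counting error only. Monolayer libraries 2 and 3 were the most alike, yet differed by more than sampling noise, and both were kept.

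The 3 keratins, the gene lists and the rule for named genes were chosen with earlier results of these data known. Named were the members and SPINK7, the 6 other epithelial keratins with the largest mean RPKM and any that passed with silencing, up to 4 passing members of each other list with the largest change, and the 5 genes nearest to each member. KRT13 was given beside KRT4 as the other keratin known from esophageal suprabasal layers. Alternatives were DESeq2 1.42.0 (its size factors and its Wald test), limma 3.58.1 (voom, and log2 of RPKM plus 1 or 0.1), other low-count filters, only the groups compared, a replicate block, each library left out, both ALI libraries numbered 2 left out, and monolayers 2 and 3 summed. Promoter sequences are from RefSeq (GRCh38.p14), and the coordinates of genes are those of the tables.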

Additional observations from a re-analysis of the deposited data

How the results depend on the processing

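All 3 keratins kept their direction in each comparison under all 20 alternatives. With silencing, KRT2 passed under DESeq2's Wald test (-3.67, adjusted p = 1.76e-05), without both ALI libraries numbered 2 (-3.71) and without control library 2, within -4.40 to -3.22 when single libraries were left out. KRT10 was lost without silenced library 1 or 3 (-4.90 to -4.00 over single omissions). KRT2 in silenced cultures against monolayers was lost on log2(RPKM + 1), at 1.40 (adjusted p = 0.0964). The number of genes called with silencing was 119; it was 415 by DESeq2, 59 with only the ALI groups, 79 with monolayers 2 and 3 summed, 708 without both ALI libraries numbered 2, and 28 to 236 with single libraries left out. Those furthest from 119 were 28, 33 and 236 without silenced libraries 1, 3 and 2, 51, 56 and 184 without control libraries 1, 3 and 2, and 78 without monolayer library 3. Silenced cultures against monolayers gave 4058 genes, 6459 without both ALI libraries numbered 2 and 2653 to 5743 with single omissions, the lowest being 2653 without monolayer library 2 and 2675 without silenced library 3. The cause of these shifts was not tested.

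With single libraries left out, 1 to 4 epithelial keratins and 1 to 5 mucosal genes fell, 0 to 1 spinous and granular genes rose, and 0 to 1 regulators fell and 0 to 1 rose. Without both ALI libraries numbered 2, 8 epithelial keratins fell and 2 rose, 9 mucosal genes fell, 2 spinous and granular genes rose, 3 regulators fell and 1 rose. Of all 12931 genes in that fit 428 fell and 280 rose. With no low-count filter 1 spinous and granular gene rose. Log2 fold changes that reversed were within -0.25 to 0.43 for KRT14, -0.0368 to 0.64 for KRT17, -0.18 to 0.34 for KRT6A and -0.35 to 0.30 for KRT6B over single omissions. KRT6B was also at -0.0183 with DESeq2's size factors and with its Wald test, -0.0233 with summed monolayers, -0.0119 with no filter, -0.0067 with the stricter filter, -0.0251 with only the ALI groups and -0.054 without both ALI libraries numbered 2. With a prior count of 0.5, 2 of the 5 nearest genes of KRT2 and 2 of those of KRT10 stayed among the nearest 5.

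The main fit did not pair libraries by replicate number. Deviations of same-numbered ALI libraries correlated at 0.495, 0.577 and -0.01, and those of same-numbered ALI and monolayer libraries between -0.217 and 0.128. The value of 0.577 is that of the ALI libraries numbered 2. Against ALI libraries of another number in the other group, these gave -0.691, -0.492, -0.465 and -0.109. Control library 3 with silenced library 1 gave 0.637, above each same-numbered pair, and control library 1 with silenced library 3 gave 0.207. Whether libraries of the same number share an origin was not tested. Blocked by replicate number (replicate block), 176 genes were called with silencing, and KRT1 gave -5.23, KRT10 -4.30 and KRT2 -3.59 (adjusted p = 0.0013), the last passing. Depth limits KRT2, with 0 counts in monolayers and at most 79 in silenced libraries.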
